A study of Homo sapiens with 9 samples.

Results

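The genes described here are those whose symbol is KCN followed by letters and a number, the approved root for potassium channel subunits. The rule used names only, and found 95 of the 62700 genes in the count table. They were followed in polyA-selected RNA of HEK293T, a human embryonic kidney line that carries the SV40 large T antigen. The 3 groups of 3 libraries each came from the same line and differed in the plasmid: an empty vector, HA-CIC(ex20)::NUTM1(ex6) (below, CIC::NUTM1) or HA-CIC::DUX4. Each condition started from 300000 cells, the replicates were made on separate days, and RNA was taken about 48 hours after reverse transfection (labels' protocols). The groups therefore describe short transient expression in 1 cell line, and the promoter that drives each insert is not given in the sources used here. CIC is a repressor that binds short octamers in DNA, and its fusions to NUTM1 or DUX4 are found in aggressive sarcomas and act as activators. CIC, NUTM1 and DUX4 were not analysed here, so the amount of each fusion was not compared.

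Potassium channels let potassium leave or enter the cell along its gradient and thereby set the resting potential and shape electrical signals. Voltage-gated (Kv) channels open on depolarization. Inward rectifiers (Kir) pass current best near rest, 2-pore-domain channels leak at all voltages, and a further class opens with intracellular calcium or sodium. Many pores are assembled from several gene products with auxiliary subunits. In kidney epithelium, Kir channels recycle potassium beside the sodium-potassium pump, while most Kv genes are known from neurons and muscle.

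Library totals lay between 16970771 and 33655445 counts. Of the 95 genes, 91 had at least 1 count in some library, and KCNH7, KCNJ13, KCNK16 and KCNK18 had none. The 58 that passed edgeR's abundance filter were tested among 17576 genes, and 37 did not pass. Of the 58, 9 had no empty vector library over the filter's level of 0.486 CPM (counts scaled to library size): KCNAB1, KCNH5, KCNIP1, KCNJ10, KCNJ15, KCNJ18, KCNK9, KCNN2 and KCNQ3. These passed through the fusion libraries, so counts over the tested genes lean upward and are given as a description. CPM values below are scaled by TMM, edgeR's correction of library size, and are given for replicates 1, 2 and 3 in turn. A gene was called when its adjusted p in edgeR's quasi-likelihood test (Benjamini-Hochberg over all 17576 genes) was below 0.05. In these bulk libraries, more cells that use a gene and more RNA per cell cannot be told apart.

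Markers of other cell types were summed per library. Embryonic kidney markers held 113 to 116 CPM with empty vector, 130 to 137 with CIC::NUTM1 and 111 to 121 with CIC::DUX4, and none of the 5 was at 0. LHX1 was called higher with CIC::NUTM1 and EYA1 with both fusions. Neuronal markers summed to 215 to 238, 183 to 195 and 168 to 178 CPM in the same order, and NEFL was called lower with both fusions and INA with CIC::NUTM1. NEFL held most of this sum, with a mean of 197 CPM with empty vector. Means of STMN2, SNAP25 and TUBB3 were instead higher with CIC::DUX4 (0.544, 1.01 and 0.298 CPM) than with empty vector (0.0195, 0.441 and 0.134). SNAP25 was not called (adjusted p = 0.21, edgeR), and STMN2 and TUBB3 were not tested. SYT1 was not called. Epithelial markers held 75.8 to 79.7, 66.9 to 79.7 and 82.2 to 123 CPM, and fibroblast markers 39.4 to 42.0, 39.5 to 42.4 and 38.4 to 43.3 CPM. KRT8 was called higher with CIC::DUX4, LUM higher with both fusions, DCN higher and COL1A1 lower with CIC::NUTM1. Leukocyte markers summed to 0.234 to 0.321, 0.933 to 1.5 and 0.240 to 1.45 CPM, and endothelial markers to 0.401 to 0.849, 3.52 to 6.30 and 1.39 to 7.21 CPM. These are low levels, but 1 gene of each list was tested and both were called higher: PTPRC with both fusions (log2 fold change 4.86 ± 1.02 with CIC::NUTM1, adjusted p = 0.00118, and 3.83 ± 1.08 with CIC::DUX4, adjusted p = 0.0242) and KDR with CIC::NUTM1 (3.01 ± 0.76, adjusted p = 0.0274, edgeR). KDR with CIC::DUX4 did not pass (2.56 ± 0.77, adjusted p = 0.0876, edgeR). PTPRC stood at 0, 0.0586 and 0 CPM with empty vector, so it passed the filter through the fusion libraries. With CIC::DUX4, replicate 1 was highest for PTPRC (0.915, 0.144 and 0.176 CPM) and KDR (6.87, 1.20 and 1.35). Of the untested markers, LAPTM5 had means of 0.127, 0.195 and 0.0447 CPM with empty vector, CIC::NUTM1 and CIC::DUX4. In that order CD74 had 0.134, 0.141 and 0.205, CDH5 0.0381, 0.0173 and 0.0381, and PECAM1 0.0668, 0.218 and 0.199. The part of these markers in the results below was not tested.

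CIC octamers were looked for in RefSeq promoter windows (GRCh38.p14), which run from 250 bases before to 50 after a start site. The search used TGAATGAA, TGAATGGA, TCAATGAA and TCAATGGA on both strands. Windows were at hand for 71 of the 95 genes. Of their 109 windows, 1 (0.917%) held an octamer, against 1323 of all 35116 windows (3.77%). The gene with the match was KCNJ10, which encodes Kir4.1 and was among the genes that rose most with both fusions. Its octamer lies at chr1:160070265-160070272 on GRCh38, 112 bases before the RefSeq start. It falls in the first exon, in the untranslated part, of 1 of the 11 GENCODE 29 transcripts of the gene. The 30 bases around it (chr1:160070254-160070283, minus strand, as the gene reads) are shown because they hold the only match, with the octamer in capitals. It reads TCCATTCA on this strand, and TGAATGGA on the opposite one.
KCNJ10: ctccgggccccTCCATTCAcacaaagtttg
A match is a description of the letters and not a measured binding site. None of the other 70 genes with a window held an octamer there. KCNG1, KCNJ12 and KCNK9, called higher with both fusions below, were among the genes without a window and were not searched.

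KCNJ12 and KCNJ18, a pair of Kir2 genes on chromosome 17 that both rose, need a caution that their sequence shows. In GENCODE 29 their coding sequences are both 1299 bases long and differ at 13 positions (99% identical), with an identical run of 293 bases. Coding bases 265 to 354, the 90-base stretch with the most differences, are printed on the plus strand with the 3 differing positions in capitals. They lie at chr17:21415607-21415696 for KCNJ12 and chr17:21703051-21703140 for KCNJ18 (GRCh38).
KCNJ12: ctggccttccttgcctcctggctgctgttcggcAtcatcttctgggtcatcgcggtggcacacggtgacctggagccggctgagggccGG
KCNJ18: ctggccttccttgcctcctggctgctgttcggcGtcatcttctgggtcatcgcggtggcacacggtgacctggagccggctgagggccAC
Of the 2097 windows of 100 bases in KCNJ18 transcripts, 386 (18.4%) also occur in KCNJ12. How reads that fit both genes were counted is not given in the sources used here, so the values of both genes are uncertain. The same windows are 7% of the 5513 in KCNJ12. Exons of other called genes overlap annotated genes, whose reads may be mixed with theirs: 419 bases of KCNMA1 lie opposite an antisense gene, 434 of KCNG1, 268 of KCNJ8, 260 of KCNJ4 and 121 of KCNAB1 lie opposite other genes, and 125 of KCNJ15 lie in DSCR8 on the same strand.

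With empty vector, HEK293T expressed a few potassium channel genes at moderate levels and most of them weakly. On the scale of CPM per kilobase of merged exons, which allows genes to be compared, 20 of the 95 reached 1 with empty vector, and 18 did so with each fusion. The median of the 58 tested genes with empty vector was 0.436. KCNJ8, the pore of a nucleotide-gated channel (Kir6.1), was highest at 10.7 ± 2.2 (SD, n = 3). KCNG1, a silent Kv subunit that conducts no current alone and modifies Kv2 channels, followed at 7.57 ± 0.36, and KCNJ12 (Kir2.2) at 6.11 ± 0.43. These 3 were apart by more than their SDs. KCNJ11 (Kir6.2, the pore of the sulfonylurea-sensitive channel) stood at 4.90 ± 0.63, the acid-sensitive leak channel KCNK5 at 4.46 ± 0.32 and KCNJ4 (Kir2.3) at 4.33 ± 1.25. KCNJ11, KCNK5 and KCNJ4 lay within each other's spread. With the longest transcript as the length, KCNG1 was at 11.1 beside KCNJ8.

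**Figure D1:**
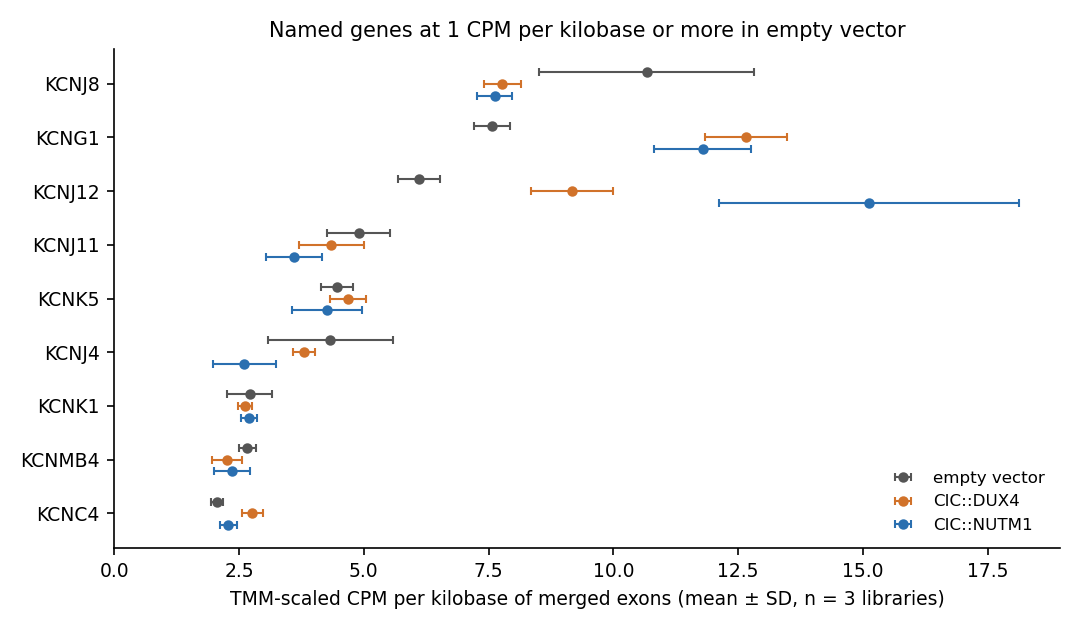
Mean TMM-scaled CPM per kilobase of merged exons (x axis, points; bars, SD of 3 libraries) for 9 of the 20 potassium channel genes that reached 1 with empty vector, in the 3 groups. KCNJ12 and KCNG1 lie further right with both fusions, KCNC4 with CIC::DUX4, and KCNJ8 further left.

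Against empty vector, 12 of the 58 tested genes were called higher with CIC::NUTM1 and 2 lower. The 12 are 20.7% of those tested, beside 11.5% of all tested genes, and the 2 are 3.45% beside 3.83%. With CIC::DUX4, 12 were higher, also 20.7%, beside 6.96% of all tested genes, and 1 was lower (1.72% beside 1.27%). The genes without an empty vector library over the filter's level gave 6 of the 12 called higher with CIC::NUTM1 and 5 of the 12 with CIC::DUX4. The remaining 49 tested genes gave 6 and 7, beside the 11.5% and 6.96% of all tested genes. The 20.7% therefore rests in part on genes tested through the fusion libraries. The share of all tested genes was not split in this way. The median log2 fold change of the 58 was 0.12 with CIC::NUTM1 and 0.15 with CIC::DUX4, and over all tested genes it was -0.0009 and -0.0015. Among the 58, 33 had a positive log2 fold change with CIC::NUTM1 and 38 with CIC::DUX4.

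Both comparisons use the same 3 empty vector libraries. In both, 9 genes were called higher, among them KCNG1, KCNIP1, KCNJ10, KCNJ12, KCNJ15, KCNJ18, KCNK9 and KCNMA1. KCNAB1, KCND1 and KCNJ2 were called higher with CIC::NUTM1 alone, and 3 genes with CIC::DUX4 alone, KCNA4 and KCNC4 among them. The direct comparison of the fusions is the test of whether they differ. There, KCNJ2, KCNJ12, KCNK9 and KCNMA1 were higher with CIC::NUTM1 (6.9% of the 58, beside 4.97% of all tested genes), and 1 gene was higher with CIC::DUX4 (1.72% beside 1.64%). KCNAB1, KCND1, KCNA4 and KCNC4, called against empty vector with 1 fusion, were not shown to differ between the fusions.

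**Figure D2:**
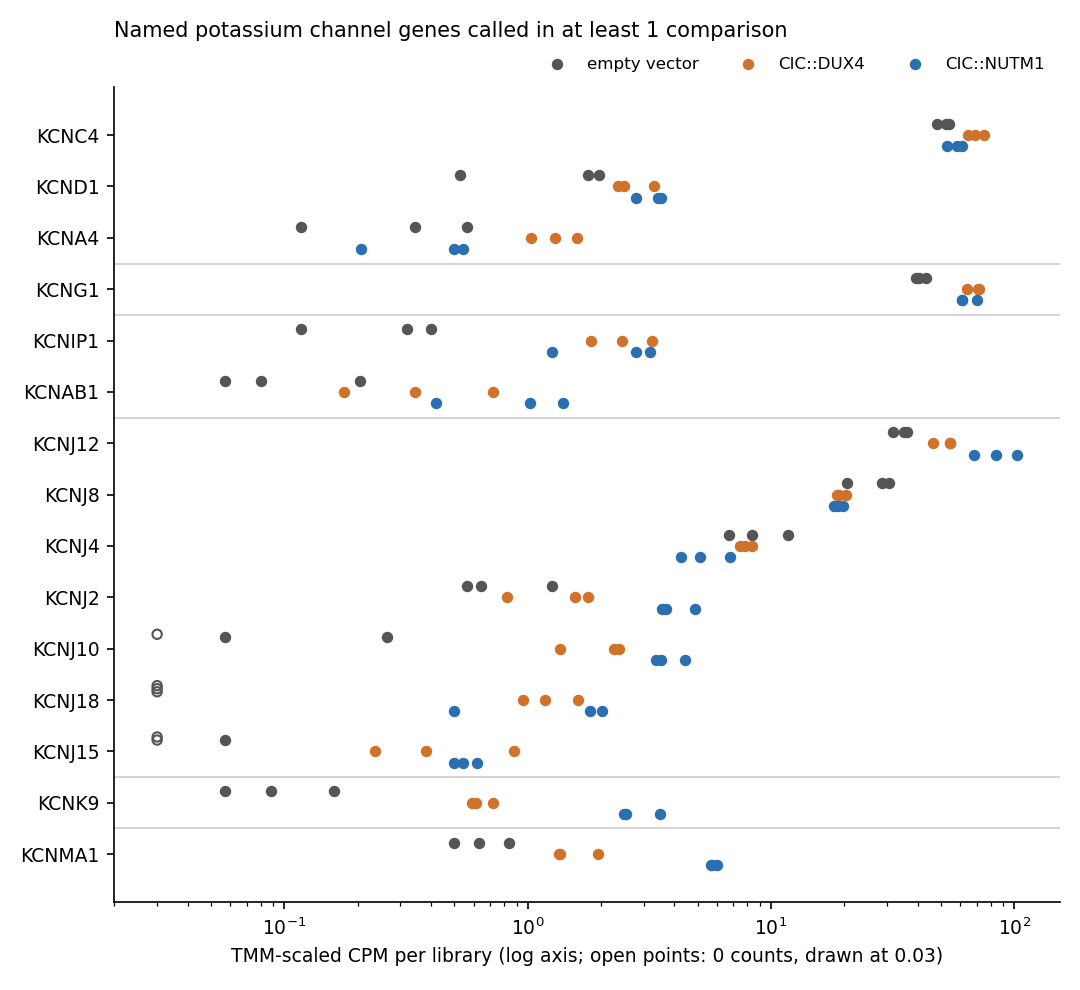
TMM-scaled CPM (x axis, log scale) of 15 of the 17 potassium channel genes called in at least 1 comparison, 1 point per library and 3 libraries per group, with lines between families; libraries with 0 counts are open points at 0.03. KCNK9 and KCNMA1 show 3 separate groups, while KCNIP1 overlaps between the fusions and KCNJ4 overlaps between empty vector and each fusion.

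The inward rectifiers held 7 of the 17 called genes. Of 16 members 10 were tested. With CIC::NUTM1, 5 were higher and 2 lower, beside 11.5% and 3.83% of all tested genes. With CIC::DUX4, 4 were higher and 1 lower, beside 6.96% and 1.27%. The median log2 fold change of the 10 was 0.97 with CIC::NUTM1 and 0.37 with CIC::DUX4. The bounds given below for KCNJ18 also lie above these medians, so setting it there could not move them. KCNJ10, KCNJ15 and KCNJ18 passed the filter through the fusion libraries, so the family's counts and medians lean upward. Both Kir4 genes rose with both fusions, the Kir6 gene KCNJ8 fell with both, and the Kir2 genes went in both directions.

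KCNJ10 (ENSG00000177807, chr1:159998651-160070483), the Kir4.1 channel of glia and of the basolateral membrane of distal kidney tubules, had 10 counts in all with empty vector, 9 of them in 1 library. Its CPM was 0.0572, 0.264 and 0 with empty vector, 4.44, 3.37 and 3.52 with CIC::NUTM1, and 2.36, 2.25 and 1.35 with CIC::DUX4. Every fusion library lay above every empty vector library, and the fusions did not overlap each other. The log2 fold change was 4.84 ± 0.53 (SE) with CIC::NUTM1 (adjusted p = 1.82e-07, edgeR) and 3.94 ± 0.54 with CIC::DUX4 (adjusted p = 1.12e-05, edgeR). The difference between the fusions, 0.90 ± 0.38, did not pass (adjusted p = 0.193, edgeR). KCNJ10 is the gene whose promoter window holds the octamer printed above. KCNJ9, a neuronal G protein-gated channel 11087 bases away, was not tested, and had 0 counts in all empty vector libraries, 8, 3 and 0 with CIC::NUTM1 and 4, 2 and 3 with CIC::DUX4.

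KCNJ15 (ENSG00000157551, chr21:38155549-38307357) encodes the related Kir4.2. It had 1 count over the empty vector libraries, or 0.0572, 0 and 0 CPM. With CIC::NUTM1 it stood at 0.540, 0.497 and 0.622 CPM, and with CIC::DUX4 at 0.877, 0.383 and 0.235 CPM. The groups did not overlap empty vector but overlapped each other. With so few counts the ratio to empty vector was 41.9 with CIC::NUTM1 (95% interval for counting error 7.03 to 1704) and 41.8 with CIC::DUX4 (7.03 to 1698). The adjusted p was 0.00208 and 0.00412 (edgeR), and the second became 0.0746 without CIC::DUX4 replicate 1. KCNJ16 (Kir5.1), the partner with which Kir4.1 and Kir4.2 form mixed channels, stayed below the filter with 0 counts in each empty vector library, 3, 8 and 6 with CIC::NUTM1 and 5, 0 and 2 with CIC::DUX4. That is at least 2.10-fold higher with CIC::NUTM1, taking 3 counts per library as the floor.

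Of the strongly rectifying Kir2 genes, KCNJ12 (ENSG00000184185, chr17:21376197-21419872) had the highest level. Its CPM was 36.2, 35.0 and 31.6 with empty vector, 54.3, 46.2 and 54.1 with CIC::DUX4, and 102, 68.5 and 84.2 with CIC::NUTM1. The 3 groups did not overlap. Its fitted log2 fold change was 1.31 ± 0.12 with CIC::NUTM1 (adjusted p = 5.3e-08) and 0.59 ± 0.12 with CIC::DUX4 (adjusted p = 0.00173), and the fusions differed by 0.72 ± 0.11 (adjusted p = 0.000303, edgeR). Its near copy KCNJ18 (ENSG00000260458, chr17:21692523-21704612), the Kir2.6 channel known from skeletal muscle, had 0 counts with empty vector. It reached 1.80, 0.497 and 2.02 CPM with CIC::NUTM1 and 1.60, 0.958 and 1.18 CPM with CIC::DUX4. These are at least 11.4-fold and 9.84-fold higher (floor of 3 counts per library, adjusted p = 1.05e-05 and 2.78e-05, edgeR), and the fusions overlapped. Counted as 1 gene, the pair gave log2 fold changes of 1.33 and 0.62 and a difference of 0.71, close to those of KCNJ12. KCNJ18 held 0, 82 and 82 counts with empty vector, CIC::NUTM1 and CIC::DUX4, beside 2619, 5119 and 3307 for KCNJ12. The pooled values therefore had to lie close to those of KCNJ12, and do not show where shared reads were counted.

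KCNJ2 (ENSG00000123700, chr17:70168673-70180048) encodes Kir2.1, which holds the resting potential of heart and skeletal muscle. It stood at 1.26, 0.644 and 0.561 CPM with empty vector, 4.86, 3.71 and 3.57 with CIC::NUTM1 and 1.56, 1.77 and 0.823 with CIC::DUX4. Only the CIC::NUTM1 libraries stood clear of the other groups. On the log2 scale the change was 2.34 ± 0.37 with CIC::NUTM1 (adjusted p = 4.3e-05) and 0.83 ± 0.39 with CIC::DUX4 (adjusted p = 0.245), and the difference between the fusions was 1.52 ± 0.35 (adjusted p = 0.00744, edgeR). KCNJ2 lies 33065 bases from KCNJ16, and 185 bases of its exons overlap the antisense gene KCNJ2-AS1.

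KCNJ4 (ENSG00000168135), a Kir2 gene of brain, fell with CIC::NUTM1. Its CPM was 6.69, 11.8 and 8.33 with empty vector, 5.10, 6.81 and 4.25 with CIC::NUTM1 and 7.44, 8.34 and 7.82 with CIC::DUX4. The CIC::NUTM1 libraries overlapped empty vector at replicate 2. The log2 fold change was -0.73 ± 0.21 with CIC::NUTM1 (adjusted p = 0.0173, edgeR) and -0.20 ± 0.20 with CIC::DUX4 (adjusted p = 0.669). The call was lost on leaving out empty vector replicate 2 (adjusted p = 0.191) or CIC::NUTM1 replicate 1 (0.0545) or 3 (0.0843).

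Both nucleotide-gated pores, which open as cellular ATP falls, had lower means with the fusions. KCNJ8 (ENSG00000121361, chr12:21764955-21775581) stood at 20.4, 30.5 and 28.6 CPM with empty vector, 18.1, 19.8 and 18.9 with CIC::NUTM1 and 18.6, 19.0 and 20.3 with CIC::DUX4. Empty vector replicate 1 was close to the fusion libraries, though the groups did not overlap. KCNJ8 fell by 0.49 ± 0.13 with CIC::NUTM1 (adjusted p = 0.00861) and by 0.47 ± 0.13 with CIC::DUX4 (adjusted p = 0.0202, edgeR) on the log2 scale. The CIC::NUTM1 call was lost without empty vector replicate 2 (0.086) or 3 (0.0595). The CIC::DUX4 call was lost without either of them (0.172 and 0.127), and when CIC::DUX4 replicate 1 (0.105) or 2 (0.0671) was left out. KCNJ11 stood at 13.4, 17.4 and 16.2 CPM with empty vector and 9.48, 12.7 and 12.4 with CIC::NUTM1, all below. Its log2 fold change of -0.44 ± 0.15 missed the threshold (adjusted p = 0.051, edgeR), and passed it with each of 3 other library scalings (0.031 to 0.0449) and with DESeq2 (0.0345), within a range of 0.0216 to 0.22 over all alternatives. The sulfonylurea receptors that complete these channels were not called in any comparison: ABCC8 stood at 2.97 ± 0.44, 2.7 ± 0.26 and 4.05 ± 0.83 CPM and ABCC9 at 0.771 ± 0.068, 1.47 ± 0.31 and 0.790 ± 0.301 CPM with empty vector, CIC::NUTM1 and CIC::DUX4.

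**Figure D3:**
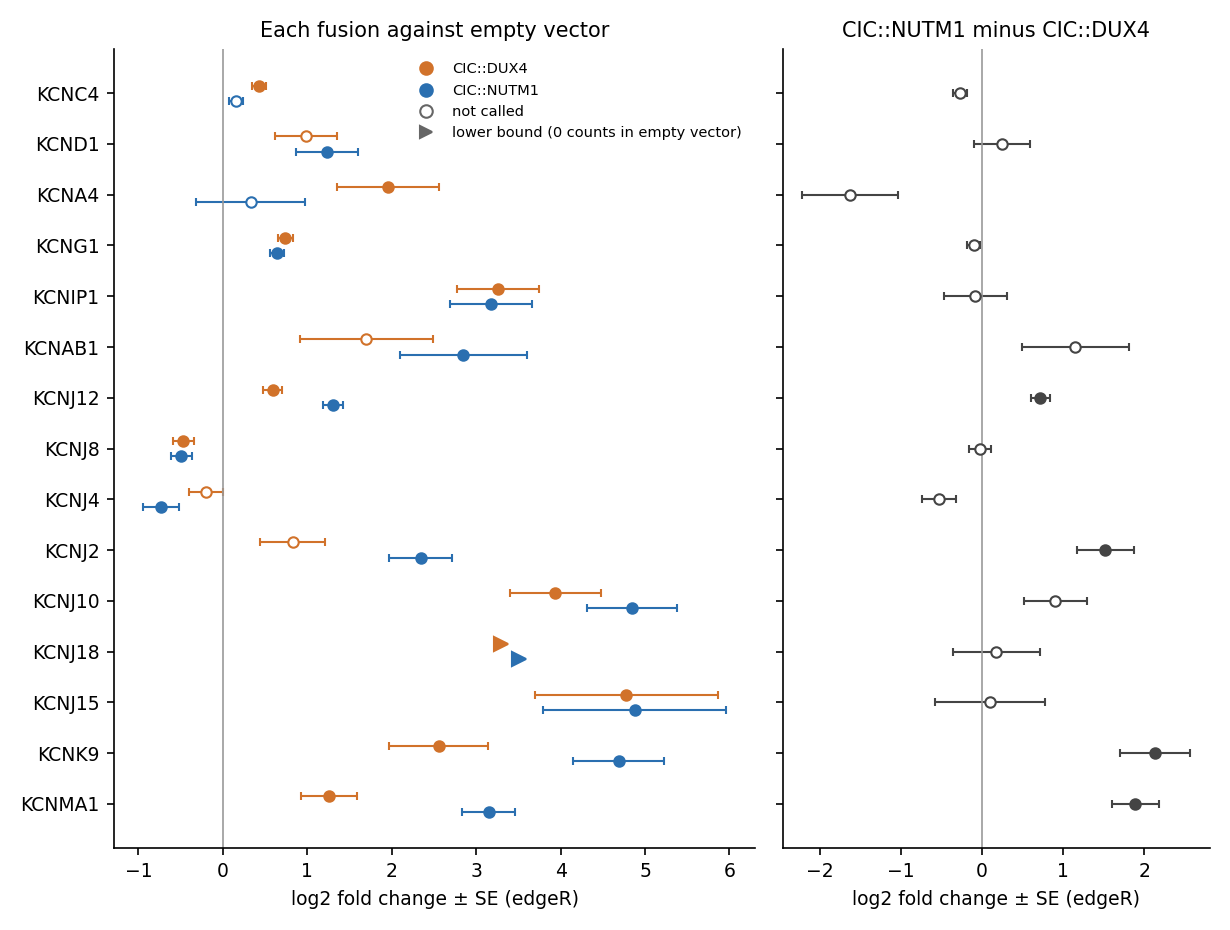
Log2 fold change with its SE (x axis) of 15 of the 17 called genes, for each fusion against the same 3 empty vector libraries (left) and for CIC::NUTM1 minus CIC::DUX4 (right). Filled points were called and open points were not; the triangles of KCNJ18, at 0 counts with empty vector, are lower bounds. KCNJ2, KCNJ12, KCNK9 and KCNMA1 lie to the right of 0 in the direct comparison.

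KCNMA1 (ENSG00000156113, chr10:76869601-77638369) encodes the pore of the BK channel, which opens with both calcium and depolarization. Its CPM was 0.629, 0.498 and 0.842 with empty vector, 5.64, 5.74 and 6.01 with CIC::NUTM1 and 1.95, 1.34 and 1.35 with CIC::DUX4. The 3 groups were separate, with the CIC::NUTM1 libraries close together at the top. Its fitted log2 fold change was 3.15 ± 0.32 with CIC::NUTM1 (adjusted p = 4.57e-08) and 1.26 ± 0.33 with CIC::DUX4 (adjusted p = 0.0155), and the difference was 1.89 ± 0.29 (adjusted p = 8.17e-05, edgeR). The CIC::DUX4 call was lost without empty vector replicate 2 (adjusted p = 0.104) or CIC::DUX4 replicate 1 (0.14), and when only these 2 groups were fitted (0.0889). Of 12 genes in the calcium- and sodium-activated class, with the BK beta subunits, 7 were tested and KCNMA1 was the one called.

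The beta subunits of BK gave no call. KCNMB4, the neuronal beta subunit, stood at 13, 11.5 and 11 CPM on average with empty vector, CIC::NUTM1 and CIC::DUX4. KCNMB1, the smooth muscle beta subunit, was below the filter and had the most counts of the untested genes. It had 0 counts in each empty vector library, 1, 6 and 8 with CIC::NUTM1 and 15, 8 and 12 with CIC::DUX4. Against the floor of 3 counts per library this is at least 4.37-fold higher with CIC::DUX4 and 1.85-fold with CIC::NUTM1. KCNMB1 lies inside KCNIP1 on the opposite strand, and their annotated exons share no bases. However, 111 bases of KCNMB1 exons lie opposite KCNIP1-OT1, whose reads may be mixed with those of KCNMB1. KCNMB3 had a log2 fold change of 1.05 ± 0.50 with CIC::NUTM1 (adjusted p = 0.18, edgeR), and 3403 bases of its exons overlap PIK3CA on the opposite strand, so its reads are uncertain. The small-conductance channel KCNN3 stood at 2.06, 3.98 and 2.40 CPM with empty vector and 4.44, 4.44 and 4.35 with CIC::NUTM1, and its change did not pass (0.62 ± 0.26, adjusted p = 0.125, edgeR), except on leaving out empty vector replicate 2 (0.0268).

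Among the 2-pore-domain channels, which carry background potassium leak, 1 of 8 tested genes was called. KCNK9 (ENSG00000169427), the acid-sensitive TASK-3 channel, stood at 0.0572, 0.0878 and 0.160 CPM with empty vector. It reached 3.48, 2.53 and 2.49 CPM with CIC::NUTM1 and 0.610, 0.719 and 0.588 CPM with CIC::DUX4. The 3 groups did not overlap. On the log2 scale the change was 4.69 ± 0.54 with CIC::NUTM1 (adjusted p = 3.9e-07) and 2.55 ± 0.58 with CIC::DUX4 (adjusted p = 0.00448), and the difference was 2.13 ± 0.43 (adjusted p = 0.0022, edgeR). The channels KCNK5 and KCNK1, the highest of the class per kilobase, kept log2 fold changes between -0.07 and 0.07 in both fusions, and neither was called. The median over the 8 was -0.14 with CIC::NUTM1 and 0.00 with CIC::DUX4.

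KCNG1 (ENSG00000026559), the silent subunit that joins Kv2 pores, stood at 39.5, 40.7 and 43.3 CPM with empty vector. It was at 70.2, 61.0 and 61.1 CPM with CIC::NUTM1 and 71.6, 63.7 and 71.2 CPM with CIC::DUX4. Both fusions were clear of empty vector and overlapped each other. Its fitted log2 fold change was 0.64 ± 0.08 with CIC::NUTM1 (adjusted p = 3.55e-06) and 0.74 ± 0.08 with CIC::DUX4 (adjusted p = 6.4e-07, edgeR), and the difference did not pass (-0.10 ± 0.08, adjusted p = 0.569). It was the called one among 5 tested silent Kv modifiers.

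In the Kv1 to Kv4 pores, 13 of 17 members were tested. Beside 11.5% and 6.96% of all tested genes, 2 were higher with CIC::NUTM1 and 4 with CIC::DUX4. The Kv3 genes among them encode channels that close fast and let neurons fire at high rates. KCNC4 (Kv3.4) gave 53.6, 52.5 and 48.2 CPM with empty vector, 58.2, 61.0 and 52.6 with CIC::NUTM1 and 68.7, 64.3 and 74.7 with CIC::DUX4. The CIC::DUX4 libraries lay above all others. KCNC4 rose by 0.43 ± 0.08 with CIC::DUX4 (adjusted p = 0.000986, edgeR), and the direct difference of -0.27 ± 0.08 just missed (0.0526). KCNC1 (Kv3.1) had log2 fold changes that missed the threshold, 0.47 ± 0.16 with CIC::NUTM1 (adjusted p = 0.0537) and 0.48 ± 0.16 with CIC::DUX4 (0.0727, edgeR). The CIC::NUTM1 value passed without the abundance filter (0.0432), with DESeq2 (0.0472) and on leaving out empty vector replicate 3 (0.0437) or CIC::NUTM1 replicate 2 (0.0204), and ran up to 0.357 over all alternatives. The CIC::DUX4 value passed when only these groups were fitted (0.0414) and ran up to 0.259. KCNC2 (Kv3.2), below the filter, had 0 counts with empty vector, 4, 14 and 10 with CIC::NUTM1 and 5, 0 and 0 with CIC::DUX4, at least 3.41-fold higher with CIC::NUTM1 against the floor of 3 counts per library.

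The A-type channels inactivate quickly and delay firing. KCNA4 (Kv1.4) stood at 0.343, 0.117 and 0.561 CPM with empty vector, 0.540, 0.497 and 0.207 with CIC::NUTM1 and 1.03, 1.29 and 1.59 with CIC::DUX4. The CIC::DUX4 libraries were above all others. Its change with CIC::DUX4 (1.96 ± 0.60, adjusted p = 0.042, edgeR) was lost on leaving out empty vector replicate 1 (0.121) or 2 (0.231) or any CIC::DUX4 library (0.099, 0.122 and 0.145 for replicates 1, 2 and 3). The direct difference of -1.63 ± 0.59 did not pass (0.114). KCND1 (Kv4.1) gave 1.77, 0.527 and 1.96 CPM with empty vector, 3.42, 3.52 and 2.80 with CIC::NUTM1 and 3.32, 2.49 and 2.35 with CIC::DUX4, and both fusions lay above empty vector. It passed with CIC::NUTM1 (1.24 ± 0.37, adjusted p = 0.0209) and not with CIC::DUX4 (0.99 ± 0.37, adjusted p = 0.111, edgeR). The CIC::NUTM1 value became 0.128 on leaving out empty vector replicate 2, and 0.0546 and 0.0548 on leaving out CIC::NUTM1 replicate 1 or 2.

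Of the auxiliary subunits, 6 of 12 were tested. Called higher were 2 with CIC::NUTM1 and 1 with CIC::DUX4, beside 11.5% and 6.96% of all tested genes. KCNIP1 (ENSG00000182132, chr5:170353487-170736632), a calcium-binding partner of Kv4 pores, stood at 0.401, 0.117 and 0.321 CPM with empty vector. It gave 3.18, 1.26 and 2.80 CPM with CIC::NUTM1 and 3.24, 2.44 and 1.82 CPM with CIC::DUX4. The fusions overlapped each other and were clear of empty vector. The log2 fold change was 3.18 ± 0.49 with CIC::NUTM1 (adjusted p = 2.92e-05) and 3.26 ± 0.49 with CIC::DUX4 (adjusted p = 3.28e-05, edgeR), and their difference was -0.08 ± 0.39 (0.948). KCNAB1, a beta subunit of Kv1 channels, stood at 0.0572, 0.205 and 0.0801 CPM with empty vector, 1.02, 0.421 and 1.40 with CIC::NUTM1 and 0.343, 0.719 and 0.176 with CIC::DUX4. It passed with CIC::NUTM1 (2.85 ± 0.75, adjusted p = 0.00937) and not with CIC::DUX4 (1.70 ± 0.79, adjusted p = 0.235, edgeR). The call was lost on leaving out empty vector replicate 1 (0.0541) or 3 (0.0583) or CIC::NUTM1 replicate 3 (0.0802).

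No gene was called among the 5 Kv7 pores, all tested, or the 4 tested EAG, ERG and ELK pores. KCNQ3, a subunit of the neuronal M channel, was at 0.172, 0.322 and 0.0401 CPM with empty vector and 0.839, 0.431 and 1.35 with CIC::DUX4, all above, and did not pass (2.17 ± 0.75, adjusted p = 0.0789, edgeR). At unadjusted p below 0.05, 5 uncalled genes remained against empty vector: KCNC1, KCNJ11, KCNMB3, KCNN3 and KCNQ3.

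**Figure D4:**
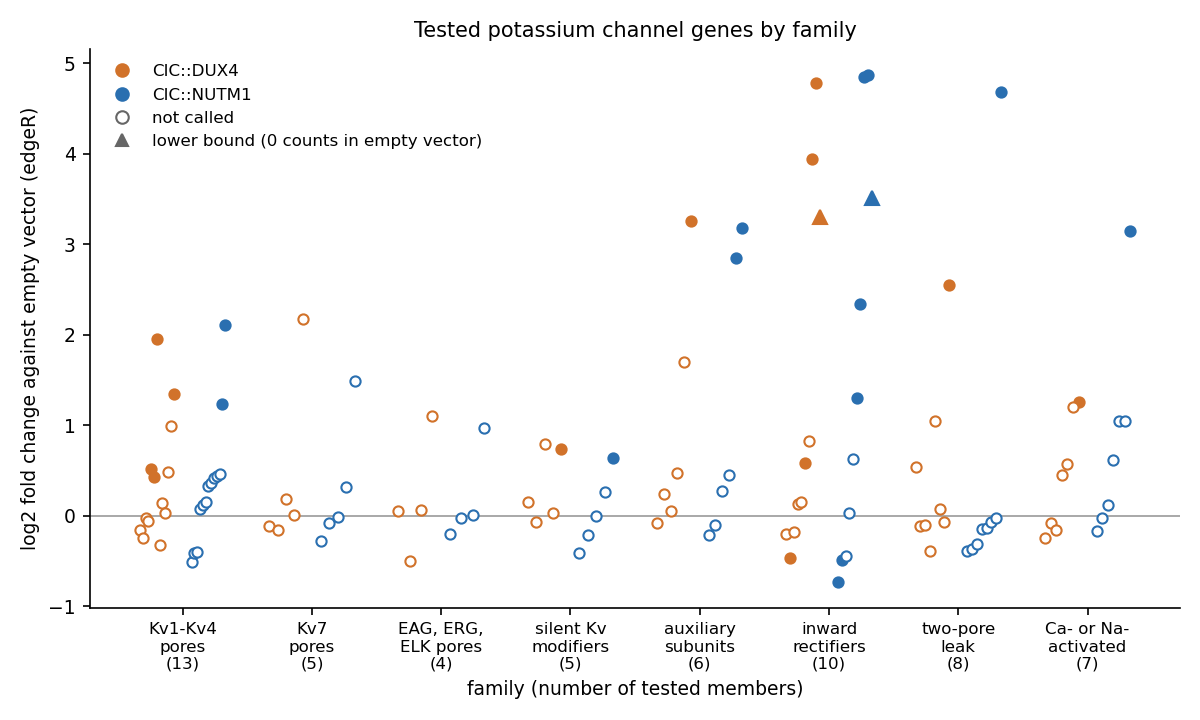
Log2 fold change against empty vector (y axis) of the 58 tested potassium channel genes by family (x axis), 1 point per gene and fusion; filled points were called, and the triangles are the lower bounds of KCNJ18. The inward rectifiers hold 5 of the 12 genes called higher with CIC::NUTM1 and 4 of the 12 with CIC::DUX4, and the Kv7 and EAG, ERG and ELK pores hold none. Of these rectifiers, KCNJ10, KCNJ15 and KCNJ18 passed the filter through the fusion libraries.

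The 37 genes below the filter were added up per library. Their sum was 1.20, 2.23 and 1.76 CPM with empty vector (141 counts), 3.90, 4.71 and 4.04 with CIC::NUTM1 (266 counts) and 3.28, 3.21 and 3.12 with CIC::DUX4 (206 counts). All fusion libraries lay above all empty vector libraries. The ratio of means to empty vector was 2.44 with CIC::NUTM1 and 1.85 with CIC::DUX4, beside 1.5 and 1.53 for the sum of all 17189 genes that had counts and stayed below the filter. Single genes were spread unevenly over replicates at this depth. KCNJ1 (Kir1.1, the kidney's secretory channel) had 18 counts in 1 empty vector library and 0 in the other two. KCNA7 had 7, 13 and 12 counts in replicate 2 of empty vector, CIC::NUTM1 and CIC::DUX4. It had 1 count in CIC::NUTM1 replicate 3 and 0 in the rest. KCNG2, KCNE1 and KCNJ5 had 9, 6 and 14 counts over the empty vector libraries, 20, 13 and 11 with CIC::NUTM1, and 18, 16 and 8 with CIC::DUX4.

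Other genes that move potassium were read from lists outside the KCN symbols. Of 14 sodium-potassium pump genes 7 were tested, and 3 were called higher with CIC::NUTM1, none with CIC::DUX4, and the same 3 in the direct comparison. Over all tested genes, the shares called higher in these comparisons were 11.5%, 6.96% and 4.97%. ATP1B3, a beta subunit, stood at 190 ± 6.7 CPM with empty vector, 275 ± 30.7 with CIC::NUTM1 and 214 ± 6.8 with CIC::DUX4 (log2 fold change 0.53 ± 0.07 with CIC::NUTM1, adjusted p = 2.46e-06, edgeR). FXYD5, a small regulator of the pump, stood at 18.7 ± 2.1, 33.8 ± 7.7 and 22.3 ± 3.6 CPM in the same order (0.84 ± 0.15, adjusted p = 0.000264). The median over the 7 was 0.04 with CIC::NUTM1 and 0.03 with CIC::DUX4, so the calls lay in a minority of the pump genes.

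Of 6 cation-chloride cotransporters, all tested, 2 were called higher with both fusions, beside 11.5% of all tested genes with CIC::NUTM1 and 6.96% with CIC::DUX4. SLC12A1, the sodium-potassium-chloride cotransporter of the kidney's loop of Henle, had 0 counts with empty vector, 2.04, 1.57 and 1.97 CPM with CIC::NUTM1 and 1.56, 0.814 and 1.18 CPM with CIC::DUX4. That is at least 14.7-fold and 9.36-fold higher (floor of 3 counts per library, adjusted p = 5.86e-07 and 5.65e-06, edgeR). SLC12A1 passed the filter through the fusion libraries, so the number called in this list leans upward. SLC12A5, the neuronal potassium-chloride exporter, stood at 4.12, 2.75 and 2.64 CPM with empty vector, 13.4, 7.81 and 13.5 with CIC::NUTM1 and 7.82, 5.89 and 6.29 with CIC::DUX4. Its log2 fold change was 1.88 ± 0.23 with CIC::NUTM1 (adjusted p = 1.05e-06) and 1.10 ± 0.23 with CIC::DUX4 (adjusted p = 0.00225), and the fusions differed by 0.78 ± 0.22 (adjusted p = 0.0276, edgeR). The other 4, the broadly expressed SLC12A2 among them, were not called, and the median log2 fold changes over the 6 were -0.0016 and 0.03. Of 9 auxiliary subunits without a KCN symbol, 2 were tested and none was called. Of 3 tested hyperpolarization-activated channels, HCN2 was called in the direct comparison, higher with CIC::NUTM1 by 0.68 ± 0.18 (adjusted p = 0.0218, edgeR), and none against empty vector.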

How the data were processed

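For the 9 libraries, the authors deposited raw read counts (1 row per Ensembl gene) and log2 CPM for 15811 named genes. The log2 CPM values list the same 58 potassium channel genes as passed the filter here. They were also fitted with limma-trend as one of the alternatives. Per the submitters' processing notes, STAR 2.7.10b, R 4.2.2, edgeR 3.40.2 and GRCh38 were used. Which annotation was counted, and whether strand was used, is not given in the sources used here, so reads of overlapping and antisense genes cannot be assigned with certainty, although the library kit keeps strand per the labels' protocols.

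Symbols matched 62622 of 62700 gene IDs. Counts were filtered with filterByExpr, scaled by TMM and fitted with edgeR 4.0.16 in R 4.3.3 (robust quasi-likelihood, all 9 libraries, 1 mean per group). The biological coefficient of variation was 10.1%. The test was checked on simulated data. Each SE is the log2 fold change over the root of its F statistic. With 3 libraries per group, p-values measure the spread between these transfections of 1 line. Reads carry no molecular identifiers, so intervals and floors (3 counts per library) cover counting error only. Lengths, exons, positions and coding sequences came from GENCODE 29 (GRCh38), and promoter windows from RefSeq. Alternatives included other scalings and filters, DESeq2 1.42.0, limma-trend on the deposited log2 CPM, a fit of 2 groups, a replicate block and leaving out each library.

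Genes named are all those called, the 8 highest per kilobase with empty vector, uncalled genes with an unadjusted p below 0.05, the untested genes with the most counts (7, with ties) and called genes of the other lists. Some of these are not reported here, though counts include them. KCNJ9, KCNJ16, KCNK1, KCNMB4, ABCC8, ABCC9 and the uncalled cotransporters were named as partners or neighbours after their values were seen. The members and lists were chosen with earlier results of these data known.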

Additional observations from a re-analysis of the deposited data

How the results depend on the processing

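Requiring at least 10 counts in every library left 37 potassium channel genes tested, of which 5 were higher with CIC::NUTM1 and 5 with CIC::DUX4, since genes near 0 with empty vector then drop out. The shares of all tested genes called under this and the other alternative settings are not given here. The shares of 11.5% and 6.96% belong to the main fit, so these counts show only how the calls move. A minimum log2 change of 1 left 0 lower calls in each comparison. The count of genes lower with CIC::NUTM1 than with CIC::DUX4 was 2 in place of 1 with DESeq2 size factors, library totals, upper quartile factors, no abundance filter or DESeq2. Leaving out 1 library at a time gave 11 to 13 higher and 0 to 3 lower with CIC::NUTM1, 8 to 13 higher and 0 to 1 lower with CIC::DUX4, and 4 to 4 higher and 0 to 2 lower in the direct comparison. Over 38 single-gene results and 586 refits, 538 kept their direction and side of the threshold, 34 lost the call, 14 gained one and 0 reversed. For the named calls that could be lost, the adjusted p (edgeR, DESeq2 or limma-trend) was followed over all alternatives. With CIC::NUTM1 it ran from 0.00437 to 0.0802 for KCNAB1, 0.00631 to 0.128 for KCND1, 0.000541 to 0.086 for KCNJ8 and 0.00212 to 0.191 for KCNJ4. With CIC::DUX4 it ran from 0.0232 to 0.231 for KCNA4, 0.00684 to 0.14 for KCNMA1, 0.00154 to 0.172 for KCNJ8 and 0.00284 to 0.0746 for KCNJ15. Counting KCNJ12 and KCNJ18 as 1 gene was added after seeing the data. Per kilobase of the longest transcript, KCNJ11 stood at 5.60. The search with 2 octamers (TGAATGAA and TCAATGAA) in place of 4 found 0 windows. Unless stated, the cause of a change was not tested.

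The labels say that replicates were made on separate days, not that equal numbers share a day. Deviations of same-numbered libraries from their group means correlated between -0.0308 and 0.0753 over 9 pairs, all below 0.1, so the numbers were not taken as pairs. With the replicate block, 12 genes were higher and 3 lower with CIC::NUTM1, 11 higher and 1 lower with CIC::DUX4, and 4 higher and 1 lower in the direct comparison. KCNA4 lost its CIC::DUX4 call (adjusted p = 0.0525) and KCNJ11 gained one as lower with CIC::NUTM1 (0.0359, edgeR).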
